A study of Mus musculus with 9 samples.

Results

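The variable (V), diversity (D) and joining (J) segments of the T cell receptor beta chain were followed in CD4+ T cells from inflamed mouse colon. Members were all rows of the deposited expression table whose symbol begins with Trbv, Trbd or Trbj and a number: 49 of 23415 rows, of which 35 were V segments, 14 were J segments and 0 were D segments. The cells came from T cell transfer colitis, in which naive T cells given to mice without lymphocytes of their own inflame the large intestine. Naive CD4+ T cells (CD25 negative, CD45RB high) were taken from CD160 knockout donors or from wildtype littermates, called control. All recipients of both groups were Rag1-/- mice, and 5000 CD4+ T cells were sorted from each colon preparation at peak of disease. There were 4 knockout and 5 control libraries. The sources used here do not give age, sex or strain, nor whether each library came from its own recipient, so the spread between libraries may be partly technical.

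Each T cell builds its beta chain gene in the thymus by joining 1 V, 1 D and 1 J segment on chromosome 6, and every daughter cell inherits that joint. The V segment encodes most of the antigen-binding domain, and the D and J segments complete its most variable loop. The joined V region is then spliced to a constant region, Trbc1 or Trbc2. Segments of the first J cluster lie next to Trbc1 and those of the second next to Trbc2. The abundance of each V segment's transcripts in a pool of T cells is called V usage. It depends on how many cells carry the segment and on how much receptor RNA each makes, and bulk RNA cannot tell these apart.

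Across the 9 libraries 8 different V segments were the most abundant of their library, and their 3′ ends are shown because they are the part that meets the D and J segments. Sequences are from GENCODE release M21 transcripts on GRCm38, printed 5′ to 3′, the last 60 bases of each. Capitals mark TGTGCCAGCAG, which starts at the codon of the conserved cysteine, where it occurs; it is the commonest 11-base word beginning with TGTGC in the functional segments' ends. It was searched on the printed strand within the last 40 bases and was present in 10 of the 22 V segments annotated as functional and in 2 of the 13 annotated as pseudogenes.
Trbv1: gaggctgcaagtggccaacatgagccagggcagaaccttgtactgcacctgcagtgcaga
Trbv2: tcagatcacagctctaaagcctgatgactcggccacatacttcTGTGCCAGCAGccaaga
Trbv5: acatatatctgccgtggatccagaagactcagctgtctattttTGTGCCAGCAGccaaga
Trbv13-2: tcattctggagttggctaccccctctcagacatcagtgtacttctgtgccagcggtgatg
Trbv13-3: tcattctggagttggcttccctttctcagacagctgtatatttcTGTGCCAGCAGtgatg
Trbv16: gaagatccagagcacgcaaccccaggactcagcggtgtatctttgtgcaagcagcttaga
Trbv26: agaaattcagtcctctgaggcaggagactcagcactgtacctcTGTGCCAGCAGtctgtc
Trbv31: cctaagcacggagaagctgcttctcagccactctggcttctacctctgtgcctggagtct

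These segments lie at chr6:40891229-40891885 (Trbv1), chr6:41047340-41047995 (Trbv2), chr6:41062332-41062803 (Trbv5), chr6:41121396-41121832 (Trbv13-2), chr6:41130147-41130585 (Trbv13-3), chr6:41151740-41152230 (Trbv16) and chr6:41227505-41227993 (Trbv26), all on the plus strand. Trbv31, at chr6:41557691-41558452, is on the minus strand downstream of all J segments. The reads were 38 bases long, so each V segment was cut into all its words of that length and each word was sought in every other GENCODE gene on both strands. Of the 35 V segments, 26 shared no word with another gene. Trbv13-2 and Trbv13-3, closely related members of a family, shared 5.3% of their words. The longest stretch they share, of 50 bases, is in capitals with its flanks, and a read lying wholly inside it belongs to both.
Trbv13-2: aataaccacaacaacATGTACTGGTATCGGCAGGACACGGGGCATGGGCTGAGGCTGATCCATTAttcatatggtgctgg
Trbv13-3: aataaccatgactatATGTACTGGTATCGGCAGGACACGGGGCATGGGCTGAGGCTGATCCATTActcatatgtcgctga
Trbv4 and Trbv5 shared 73.0% and 78.2% of their words with another gene, most often 5830405F06Rik. That transcript is a long noncoding RNA annotated across them, and the table has no row under its symbol. The values of these 2 segments could therefore include RNA of that transcript. The pseudogene Trbv8 shared all of its words with another annotated gene.

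The J segments could not be followed in these libraries. All 14 Trbj rows were listed at 0 in all 9 libraries, although constant region transcripts were abundant, at 707.53 to 1393.11 TPM for Trbc1 and 1174.14 to 1885.6 TPM for Trbc2 in the 8 libraries other than control replicate 1. TPM, the transcript share on a scale common to all libraries, corrects for length and for the library total. No share, evenness or leading segment can thus be given for J, and the choice between the 2 J clusters was followed only indirectly, through Trbc1 and Trbc2. Shared words were not sought for Trbc1 and Trbc2, so how far the reads tell them apart is not known here. The table has no Trbd row, and the 2 D segments annotated in GENCODE are 12 and 14 bases long. The whole D segments, the shortest and the longest Trbj and, for contrast, the shortest J segment of the alpha locus with a value above 0 are given whole. Capitals mark TTTGG or TTCGG, which begins the conserved phenylalanine and glycine motif of J segments, where it occurs.
Trbd1: gggacagggggc
Trbd2: gggactgggggggc
Trbj1-7: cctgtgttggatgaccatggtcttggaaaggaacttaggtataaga
Trbj1-3: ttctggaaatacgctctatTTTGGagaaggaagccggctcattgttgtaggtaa
Traj21: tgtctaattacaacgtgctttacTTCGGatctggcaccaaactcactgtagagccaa

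The zeros partly followed annotated length across receptor loci. The 14 Trbj segments are 46 to 54 bases long. Of the 60 alpha-locus J segments (Traj) in the table, the 6 that are no longer than 54 bases were also all listed at 0, while 39 of the 54 longer ones were above 0 in at least 1 library. The shortest J segment with any value was Traj21, of 57 bases, and all 4 gamma-locus J segments, of 60 to 61 bases, had values. Where a J segment was above 0 its value was never under 20.64 TPM, so that these rows were either 0 or well above it. Length did not go with every zero, since some longer segments, such as Traj61 of 72 bases, were also at 0. Whether the short Traj segments are functional was not checked. A J row at 0 therefore does not by itself show that a segment was unused, and the cause of the zeros was not tested.

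**Figure D1:**
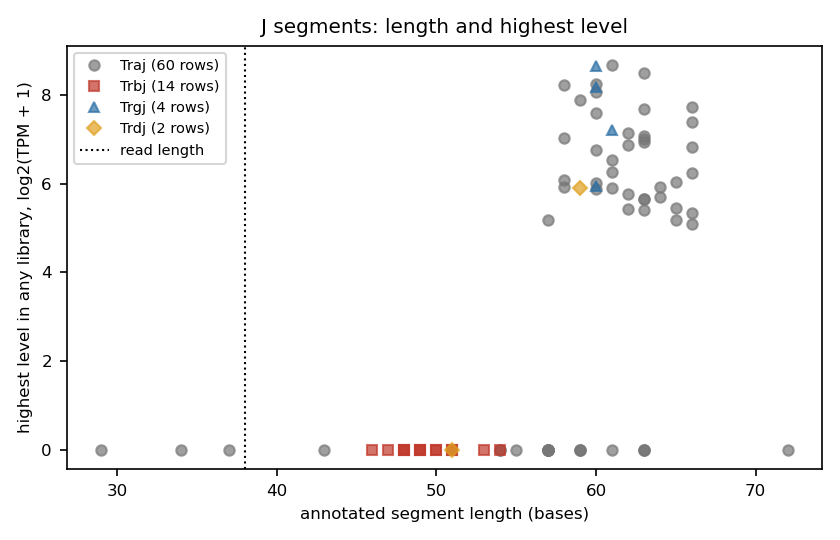
Each point is a J segment of the alpha (Traj), beta (Trbj), gamma (Trgj) or delta (Trdj) locus, with its annotated length in bases against its highest log2(TPM + 1) in any of the 9 libraries. The dotted line marks the read length of 38 bases. No segment of 54 bases or fewer has a value above 0.

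Transcripts of V segments were detected from nearly the whole locus. Of the 22 V segments annotated as functional, 19 were above 0 in all 9 libraries and none was at 0 throughout; the other 3 were Trbv21, Trbv29 and Trbv30. Of the 13 annotated as pseudogenes, 8 were listed at 0 in every library. Another 4, Trbv8, Trbv10, Trbv12-3 and Trbv22, reached at most 0.65 TPM. Between 22 and 25 V segments were above 0 per library.

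The exception among the pseudogenes was Trbv24, which was above 0 in all 9 libraries. Knockout values, in replicate order, were 3.3, 2.95, 5.64 and 4.1 TPM, and control values were 4.31, 6.32, 2.21, 1.8 and 6.33 TPM, with the groups overlapping. Its sequence carries an in-frame TAG stop codon just ahead of the cysteine codon, shown here in capitals.
Trbv24: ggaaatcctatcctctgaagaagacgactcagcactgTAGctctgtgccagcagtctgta
Reading upstream in frame from TGTGC, the first bases of that stretch, 18 of the 19 functional V segments that hold TGTGC in their last 40 bases ran at least 80 codons without a stop, and Trbv23 was the exception. Of the 7 pseudogenes with TGTGC, 0 did.

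Control replicate 1 stood apart before any comparison. It had 7308 genes at 1 TPM or more, against 11088 to 11711 in the other 8 libraries, and its V total was 239.0 TPM, against 1344.15 to 2174.26 TPM. The T cell genes were not all low there: Cd3e, a signalling chain of the receptor complex, was at 30.99 TPM against 246.36 to 464.41 TPM elsewhere, while Cd4, the co-receptor used for the sort, was at 333.56 TPM against 317.06 to 491.95 TPM. The main group values and all tests of V segments are therefore given with and without this library. Transcripts of Cd160, the targeted gene, stood at 5.44 to 18.76 TPM in the 4 knockout libraries and 31.8 to 212.38 TPM in the 5 control libraries, lower in every knockout but not at 0. The row of the reporter gene tdTomato was at 0 in all 4 knockout libraries and at 2.52 to 8.78 TPM in all 5 controls, a difference between the groups that the labels do not mention. Cd4 and Cd3e were present in all 9 libraries, and Rag1, Rag2 and Dntt, the thymic enzymes that cut and extend receptor joints, did not exceed 0.25 TPM in any. Cd8a, a marker of CD8 T cells, was at 81.17 TPM in control replicate 3 and 86.12 TPM in control replicate 5. Elsewhere Cd8a was at 3.06 to 23.88 TPM. Cd8b1, the other CD8 marker listed, was at 1.11 to 9.88 TPM, highest in knockout replicate 4. What CD8 T cells added to V usage was not tested. Of 5 B cell markers, Ms4a1 and Pax5 were listed at 0 in all libraries.

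The V totals of the 2 groups overlapped. The V total was 1572.06, 2003.95, 1590.36 and 1344.15 TPM in knockout replicates 1 to 4. It was 239.0, 1970.42, 2174.26, 2051.48 and 1440.4 TPM in control replicates 1 to 5. Knockout libraries averaged 1628 ± 275 TPM (SD, n = 4) and controls 1575 ± 798 TPM (SD, n = 5), or 1909 ± 324 TPM (SD, n = 4) without control replicate 1. The ranges overlapped either way. The sum of 8 macrophage and dendritic cell markers ran from 8043.21 to 14138.9 TPM in knockout libraries and from 2265.91 to 9149.39 TPM in control replicates 2 to 5, with 919.63 TPM in control replicate 1. TPM divides a fixed total among all cells of the sort, and the part these other cells play in the V total was not tested.

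Relative to the constant regions the V totals overlapped too. The ratio of the V total to Trbc1 plus Trbc2 was 0.532, 0.73, 0.72 and 0.524 in knockout replicates 1 to 4. In control replicates 1 to 5 it was 0.328, 0.725, 0.753, 0.687 and 0.526. Values near 0.53 and near 0.72 occurred in both groups, and control replicate 1 lay below all others. No p is given for such totals, since they are scores over the members.

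V usage was spread over many segments in both groups. The effective number of V segments, the number of equally abundant segments that would give the same Shannon entropy, was 15.13, 14.89, 14.92 and 12.26 in knockout replicates 1 to 4. It was 12.41, 14.01, 13.22, 12.95 and 12.63 in control replicates 1 to 5. Knockout replicates 1 to 3 were above every control library, and knockout replicate 4 was below every one. The means were 14.3 ± 1.37 (SD, n = 4) and 13.04 ± 0.622 (SD, n = 5), or 13.2 ± 0.59 (SD, n = 4) without control replicate 1. Evenness, the entropy divided by its maximum for the detected segments, ranged from 0.789 to 0.861 in knockouts and from 0.815 to 0.854 in controls, or from 0.820 without control replicate 1.

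The leading segment differed from library to library. In knockout replicates 1 to 4 it was Trbv31 at 16.7%, Trbv13-3 at 12.6%, Trbv16 at 15.5% and Trbv26 at 26.8% of the V total. In control replicates 1 to 5 it was Trbv5 at 21.2%, Trbv13-2 at 16.1%, Trbv16 at 15.3%, Trbv1 at 15.7% and Trbv2 at 24.3%. Trbv16 was the only segment to lead in 2 libraries, knockout replicate 3 and control replicate 3. The first 5 segments together took 54.4% to 64.0% of the V total in knockouts and 55.5% to 66.2% in controls, or up to 64.7% without control replicate 1. The share of the leading segment averaged 17.9% ± 6.16 (SD, n = 4) and 18.5% ± 4.01 (SD, n = 5), and 17.8% ± 4.3 (SD, n = 4) in controls without replicate 1.

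**Figure D2:**
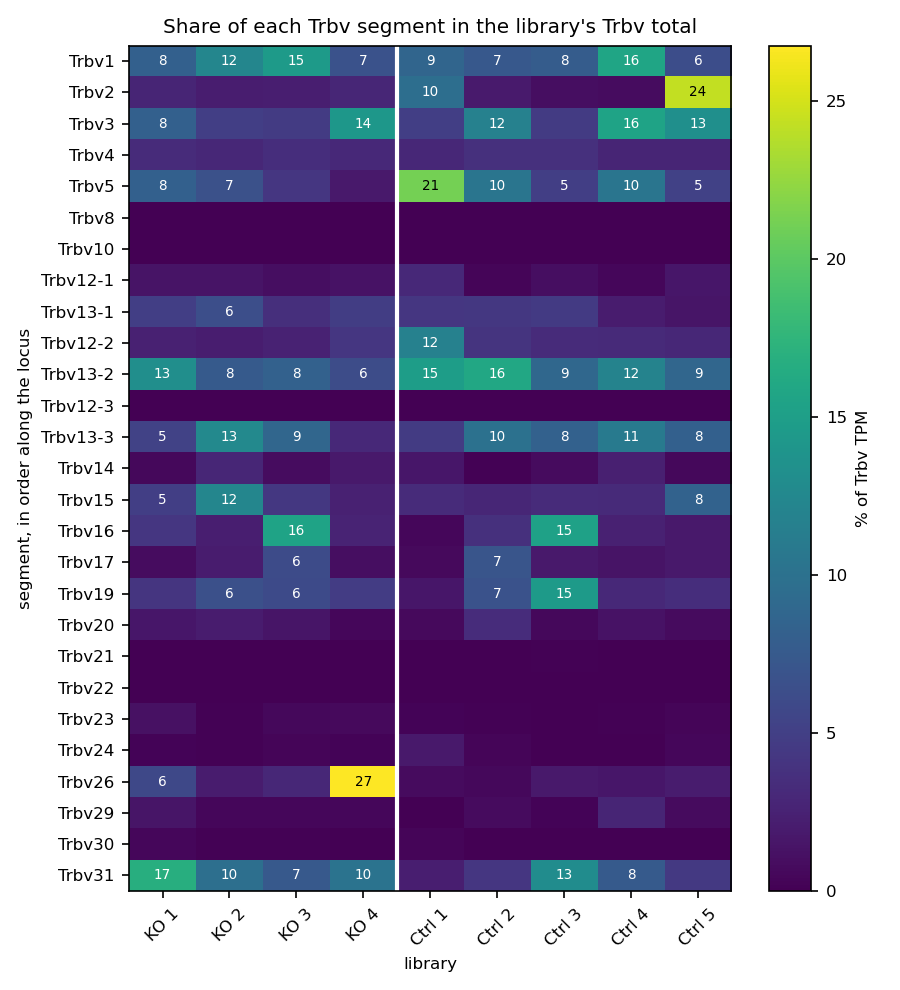
Share of each V segment in the V total of each library, in percent, for the 27 segments above 0 in any library, in their order along the locus; KO is knockout and Ctrl is control. Shares of 5% or more are written in the cells. Single bright cells mark Trbv26 in knockout replicate 4 and Trbv2 in control replicate 5.

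**Figure D3:**
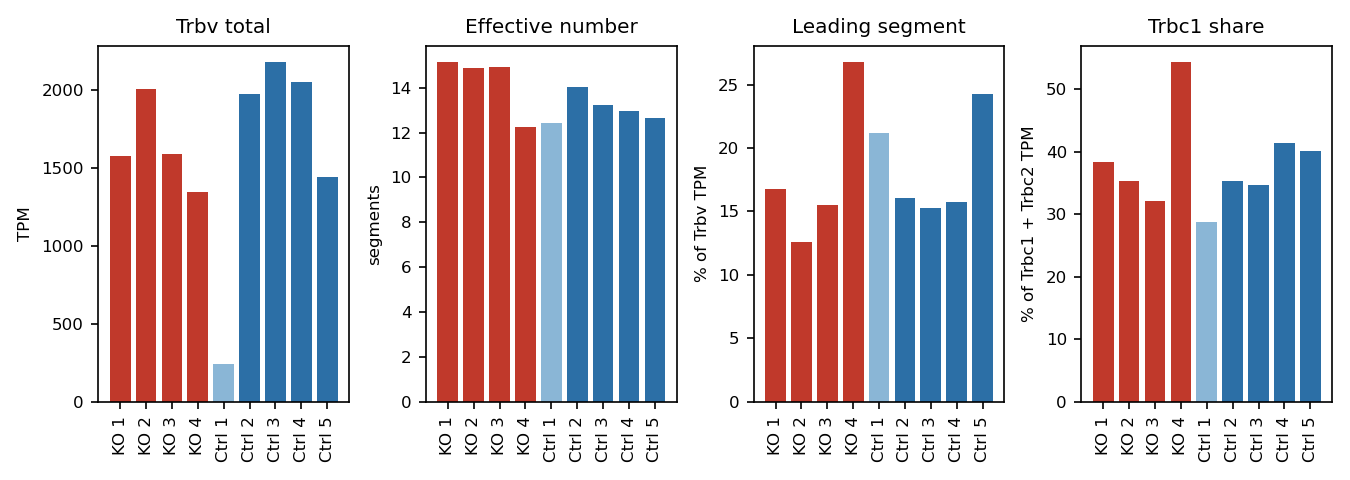
For each library, the V total in TPM, the effective number of V segments, the share of the leading V segment and the share of Trbc1 in the sum of Trbc1 and Trbc2. Red bars are knockout, dark blue bars control replicates 2 to 5, and the light blue bar is control replicate 1, which has the lowest V total.

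Some of these leaders were abundant in 1 or 2 libraries and minor in most others. Trbv26 took 26.8% of the V total in knockout replicate 4, and its median in the other 8 libraries was 1.93%. Trbv2 took 24.3% in control replicate 5 and 9.62% in control replicate 1, and its median outside control replicate 5 was 2.23%. Trbv16 was at 15.5% in knockout replicate 3 and 15.3% in control replicate 3, and next at 4.19% in knockout replicate 1. By contrast Trbv4 kept within 2.78% to 3.71% in all 9 libraries, and Trbv13-2 was never below 6.23%.

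Knockout replicate 4 stood out in its Trbc1 share, and control replicate 5 in its leading alpha-chain V segment. Trbc1 made up 54.3% of Trbc1 plus Trbc2 in knockout replicate 4, the library led by Trbv26, and 28.7% to 41.4% in the other 8. How far reads told Trbc1 and Trbc2 apart was not tested. In control replicate 5, led by Trbv2, the most abundant alpha-chain V segment, Trav14-1, took 25.7% of the alpha V total, against 4.88% to 16.7% in the other libraries. The leading alpha V segment of knockout replicate 4, Trav3d-3, took 10.9%. Shared words were not sought for alpha V segments, so how far reads told these apart is not known here. Bulk values do not show whether such alpha and beta segments came from the same cells.

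Across all 9 libraries 6 segments carried most of the V total on average. Trbv13-2 averaged 10.7% of the V total, Trbv1 9.74%, Trbv3 9.12%, Trbv31 8.4%, Trbv5 8.12% and Trbv13-3 7.99%. Without control replicate 1 these means were 10.1%, 9.87%, 9.64%, 9.17%, 6.49% and 8.41%, so that Trbv5 changed most. Below them Trbv19, Trbv16, Trbv2, Trbv15 and Trbv26 averaged 4.93% to 5.65%, and their ranges overlapped those of the first 6. Trbv12-2, Trbv13-1 and Trbv4 averaged 4.06%, 4.06% and 3.2%. The remaining functional segments, from Trbv17 at 2.54% down to Trbv21 at 0.05%, stayed under 8% in every library.

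Mean usage was not even along the locus. Over the 21 functional segments upstream of Trbd1, Spearman's rho between distance from Trbd1 and mean share in the 8 libraries without control replicate 1 was 0.55, given as a description because neighbouring segments share family and sequence. The 5 functional segments more than 450 kb upstream (Trbv1 to Trbv5) together held 34.0% of the V total on average, the 8 between 380 and 450 kb held 39.2%, and the 8 nearer ones 17.4%. In these 3 blocks knockout libraries averaged 29.4% ± 0.87, 39.0% ± 9.39 and 20.3% ± 9.48 (SD, n = 4). Control replicates 2 to 5 averaged 38.6% ± 12.9, 39.4% ± 5.1 and 14.4% ± 5.27 (SD, n = 4). Control replicate 1 had 47.4%, 44.0% and 4.46%. Trbv31, alone downstream, ranged from 4.21% to 16.7% in the 8 libraries.

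**Figure D4:**
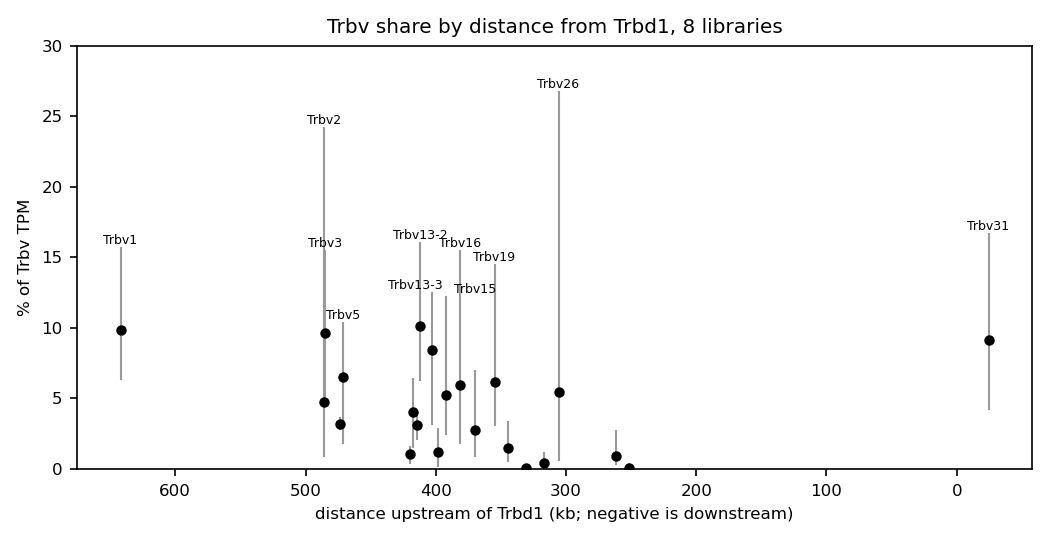
Each point is the mean share of a functional V segment in the V total over the 8 libraries without control replicate 1, and each line spans the lowest to the highest of them, against distance upstream of Trbd1 in kb. Segments that reached 10% in any of these libraries are named; Trbv31 lies downstream at the right.

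Libraries shared most but not all of their V usage, within groups as between them. The overlap of 2 libraries, the sum over segments of the smaller of the 2 shares, ranged from 59.1% to 77.0% with a median of 69.8% in the 6 knockout pairs. It ranged from 60.6% to 77.8% with a median of 67.5% in the 6 pairs of control replicates 2 to 5. In the 16 pairs of a knockout and 1 of these controls it ranged from 59.7% to 82.3%, with a median of 70.6%. The 8 pairs with control replicate 1 lay between 49.4% and 65.6%. Without control replicate 1 the median overlap between genotypes was above that within either.

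The median spread between libraries was larger for V segments than over all tested genes in the same range of levels. The standard deviation of log2(TPM + 1) within groups, over the 8 libraries without control replicate 1, had a median of 0.80 for the 22 tested V segments. The median was 0.25 over 10497 tested genes with mean TPM in the range of the V segments (1.18 to 182.2 TPM). That set includes the V segments and is not matched more closely on level. Over all 11457 tested genes the median was also 0.25. The lowest V values were 0.32 for Trbv12-2 and 0.35 for Trbv4, and the highest 1.37 for Trbv2 and 1.39 for Trbv16. The constant region genes Trbc1, Trbc2 and Trac had 0.31, 0.21 and 0.19. Depth is unknown, so counting error in these short transcripts was not separated from variation between libraries.

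No V segment passed the genotype test. With limma on log2(TPM + 1) over 11495 genes at 1 TPM or more in at least 4 libraries, 22 of the 35 V segments and 0 of the 14 J segments were tested. Of these, 0 passed an adjusted p of 0.05, where 0.0174% of all tested genes passed, namely Tmod4 with higher and tdTomato with lower knockout values. At an unadjusted p under 0.05 there were 2 of 22, Trbv23 and Trbv26, against 6.39% of all tested genes. Both had higher knockout values, which held for 5.78% of all tested genes, and 0 of 22 had lower ones, against 0.618%. Log2 differences are knockout less control on the log2(TPM + 1) scale; 17 of 22 were positive, against 86.7% of all tested genes, and their median was 0.43, against 0.46.

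Without control replicate 1 the picture shifted, for V segments and for all genes. Then 8 of 22 were positive, against 47.5%, and the median was -0.17, against -0.014 over 11457 tested genes. In that fit 0 of 22 passed, against 0.0262%, namely the same 2 genes and Ets1, with lower knockout values. An unadjusted p under 0.05 was found for 3 of 22, against 12.8%: Trbv23 and Trbv26 with higher knockout values, against 8.44%, and Trbv12-2 with lower ones, against 4.41%.

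Trbv26 was the only tested segment whose groups did not overlap, 1 of 22 with higher knockout values against 3.88% of tested genes. None of 22 was lower without overlap, against 1.05%, and both directions together gave 4.93% of tested genes. Its knockout values were 90.65, 41.48, 47.49 and 359.56 TPM in replicate order, and its control values 1.75, 10.9, 39.09, 33.43 and 29.81 TPM. All 4 knockout libraries were above all 5 controls, by little for knockout replicate 2 over control replicate 3. The fitted log2 difference of 2.42 carried a standard error of 0.89 and an adjusted limma p of 0.657.

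Without control replicate 1 Trbv26 was again the 1 of 22 without overlap, against 4.01% higher, 3.01% lower and 7.02% in both directions together. Its log2 difference was then 1.77 (standard error 0.67, adjusted limma p 0.313). As a share of the V total the groups did not overlap either, although knockout replicate 2 and control replicate 5 were both at 2.07% to 3 digits.

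Trbv23, a minor segment, was the tested V segment with the smallest p. Knockout libraries held 18.83, 3.61, 9.94 and 9.03 TPM and control libraries 0.68, 2.23, 1.84, 2.71 and 5.98 TPM, in replicate order. The groups overlapped through knockout replicate 2 and control replicate 5. Its log2 difference of 1.6 had a standard error of 0.50 (adjusted limma p 0.598). Without control replicate 1 these were 1.35 and 0.44 (adjusted limma p 0.249). Trbv30, which was below the filter and was singled out after its values were seen, was at 7.03, 3.49, 2.82 and 0.44 TPM in knockouts and at 0.96, 0, 0, 0 and 0.37 TPM in controls. Its groups overlapped only through control replicate 1, although knockout replicate 4 and control replicate 5 were close and near 0.

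Among the abundant segments, Trbv31 and Trbv13-1 had positive differences in both fits, as did Trbv26, given above, and Trbv15, given below. Trbv31 values in replicate order were 263.08, 195.34, 119.07 and 136.9 TPM for knockouts and 5.27, 83.05, 283.5, 155.31 and 63.24 TPM for controls, so that control replicate 3 was above all knockouts. Its log2 difference of 1.32 (standard error 0.92) became 0.46 without control replicate 1. Trbv13-1 had 1.01 and 0.56, with TPM values of 56.83 to 129.11 in knockouts and 10.21 to 99.73 in controls. Trbv31 did not pass, with an adjusted limma p of 0.745 in both fits. Nor did Trbv13-1, with an adjusted limma p of 0.745, or 0.677 without control replicate 1.

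Trbv5 and Trbv12-2 had negative differences in both fits. Trbv5 values in replicate order were 129.75, 132.87, 67.98 and 24.1 TPM for knockouts and 50.58, 205.01, 108.99, 213.25 and 74.32 TPM for controls, with overlap. Its log2 difference was -0.61, and -0.90 without control replicate 1, but -0.092 without knockout replicate 4. Trbv12-2 had -0.31, and -0.54 with an adjusted limma p of 0.303 without control replicate 1. Its knockouts ranged from 37.85 to 56.61 TPM and its controls, without control replicate 1, from 43.63 to 80.08 TPM. The most used segment, Trbv13-2, had 207.02, 151.82, 131.45 and 83.8 TPM in knockouts and 35.59, 316.98, 193.61, 245.81 and 127.07 TPM in controls, which overlapped. Its log2 difference was -0.11, and -0.61 without control replicate 1, and it was positive without knockout replicate 4, control replicate 2 or control replicate 4 (0.12, 0.17 and 0.075).

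Other abundant segments, apart from Trbv2 and Trbv15, turned sign when control replicate 1 was left out. Log2 differences of 0.56 for Trbv1, 0.041 for Trbv3, 0.049 for Trbv13-3, 0.55 for Trbv19, 0.97 for Trbv16 and 0.36 for Trbv4 became -0.027, -0.75, -0.73, -0.34, -0.063 and -0.23 without it. Trbv3 also turned without knockout replicate 1 (-0.0096) or 4 (-0.20), and Trbv13-3 without knockout replicate 2 (-0.37) or 3 (-0.087). None of these passed in either fit, where their adjusted limma p ranged from 0.458 to 0.989. For Trbv2 control replicate 5 set the sign: the difference was -0.051 with it and 0.71 without it, since the other controls stood at 17.87 to 38.86 TPM and knockouts at 36.34 to 43.62 TPM. Trbv15 had 0.71, and 0.093 without control replicate 1.

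**Figure D5:**
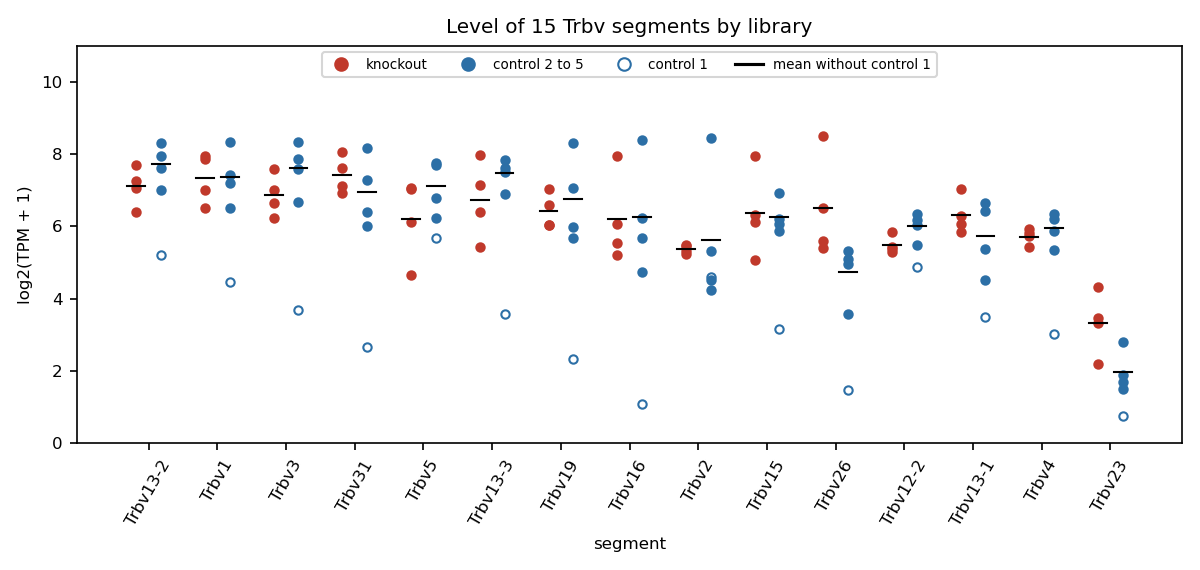
Level of 15 V segments as log2(TPM + 1), in order of mean share. Red points are the 4 knockout libraries, filled blue points control replicates 2 to 5, the open blue point control replicate 1, and black lines are group means without control replicate 1. The open point is the lowest control value for each segment but Trbv2, and Trbv26 is the one segment with no overlap.

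The constant region genes and Cd3e did not pass the genotype test either. Trbc1 averaged 1051 ± 288 TPM in knockouts and 1074 ± 123 TPM in controls without replicate 1 (SD, n = 4 each). Trbc2 averaged 1568 ± 298 and 1759 ± 99.9 TPM, Trac 834.8 ± 118 and 967.2 ± 128 TPM, and Cd3e 294.0 ± 44.5 and 396.3 ± 61.7 TPM. Over all 5 controls the means were 901 ± 401, 1511 ± 561, 808.3 ± 372 and 323 ± 172 TPM in the same order (SD, n = 5). Log2 differences without control replicate 1 were -0.067, -0.19, -0.21 and -0.43, with adjusted limma p values of 0.937, 0.628, 0.522 and 0.247. With all 9 libraries they were 0.40, 0.17, 0.28 and 0.30, with the opposite sign. A list of 9 genes held Trac, Trbc1, Trbc2, the CD3 chains Cd3d, Cd3e, Cd3g and Cd247, the co-receptor Cd4 and the pre-receptor chain Ptcra. Of these 0 passed in either direction, with a median log2 difference of 0.17. Of 10 tested genes of V(D)J recombination and end joining 0 passed, with a median of 0.30. Over all tested genes 0.0174% passed and the median was 0.46. Without control replicate 1 the list medians were -0.21 and -0.16, against -0.014 over all tested genes.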

How the data were processed

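The authors deposited TPM values, 1 column per library, each scaled to the same total. RSEM 1.2.31, Bowtie2 2.2.9 and Trimmomatic 0.32 on GRCm38 are listed, per the submitters' processing notes, with no settings; the annotation is not given in the sources used here. TPM keeps no depth, so counting error is unknown. Libraries were paired-end, with reads of 38 bases, per the labels' protocols. Groups follow the titles.

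All 49 member symbols matched GENCODE M21, which gave coordinates, lengths and sequences. Shares are percent of the V total; effective number is the exponential of Shannon entropy. The fit was limma 3.58.1 in R 4.3.3 (trend) on log2(TPM + 1), genes at 1 TPM or more in at least 4 libraries, with Benjamini-Hochberg adjustment over all genes, and it was tested on simulated data. Named segments have a mean share of at least 3%, a share of at least 10% in any library, or 1 of the 4 smallest p in either fit. The members and lists were chosen with earlier results of these data known. Alternatives were pseudocounts, filters, scalings, a replicate block, other ways of forming shares, and leaving out each library. Figures used matplotlib 3.10.9.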

Additional observations from a re-analysis of the deposited data

Results flagged for a closer look

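For 15 segment shares and 5 library summaries, each examined in both groups, 7 of 40 sets held a library whose gap to its nearest neighbour exceeded Dixon's critical value for the set's range. In segments not chosen by their values chance gives about 5%, but the 15 segments were named partly for a high share in a single library, so this count cannot be read against that rate. The sets are also not independent, since shares in a library sum to a fixed total.

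In knockout libraries Trbv26 took 26.8% of the V total in replicate 4, with the next at 5.77%, and Trbv16 took 15.5% in replicate 3, with the next at 4.19%. The effective number of V segments was 12.3 in knockout replicate 4, with the next at 14.9.

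In control libraries Trbv1 took 15.7% in replicate 4 (next 8.71%), Trbv16 took 15.3% in replicate 3 (next 3.75%) and Trbv15 took 8.4% in replicate 5 (next 3.34%). Trbv12-2 took 11.8% in replicate 1 (next 4.06%), the library with the lowest V total.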

How the results depend on the processing

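No V segment was called under any alternative run, and no J value could be formed. Of 11495 genes, 2 were called by limma, 1 higher and 1 lower in knockouts; pseudocount 5 gave 1, and no filter, a 5 TPM filter and the replicate block 0 each, with 1135, 397 and 750 genes at an unadjusted p under 0.05. Median-of-ratios scaling gave 2 higher and 1 lower. Leaving out single libraries gave 0 to 3, with 3 without control replicate 1 and 0 without any other. The median log2 difference of all genes was 0.46, and 0.016 with median-of-ratios and 0.030 with quantile scaling. Correlations of same-numbered deviations were -0.017, -0.093, -0.14 and -0.089, and 0 of 4 pairs exceeded 0.1. Control deviations were taken from a mean that includes control replicate 1, so these values cannot exclude a pairing by replicate number. Group differences of the V total, effective number, leading share and V-to-constant ratio moved by less than 1 SD under every alternative run. That SD, 629 TPM for the V total, includes control replicate 1, which widens it: the control SD was 798 TPM with that library and 324 TPM without. The main differences were 52.5 TPM, 1.25, -0.616 percentage points and 0.0228, and all but that of the effective number turned sign in some runs. Leaving out single libraries gave -281.5 to 202.3 TPM, 0.978 to 1.94, -3.57 to 1.16 percentage points and -0.0462 to 0.0602. The TPM times length alternative was not run for the V total and its ratio, nor any alternative for J.

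Uncalled log2 differences turned sign as follows, and the cause was not tested. With pseudocount 5 Trbv3 had -0.012, and with the replicate block, which leaves control replicate 5 without a partner and so without weight, Trbv2 had 0.71. With median-of-ratios scaling Trbv1 had -0.045, Trbv3 -0.55, Trbv13-3 -0.54, Trbv19 -0.0071, Trbv4 -0.22, Trbc1 -0.21, Trbc2 -0.45, Trac -0.33 and Cd3e -0.31. With quantile scaling Trbv3 had -0.46, Trbv13-3 -0.43, Trbv4 -0.18 and Cd3e -0.13. Leaving out single libraries gave -0.61 to 0.17 for Trbv13-2, -0.027 to 0.95 for Trbv1, -0.75 to 0.41 for Trbv3, -0.73 to 0.49 for Trbv13-3, -0.34 to 1.16 for Trbv19, -0.063 to 1.76 for Trbv16, -0.35 to 0.71 for Trbv2, -0.23 to 0.60 for Trbv4, -0.067 to 0.58 for Trbc1, -0.19 to 0.30 for Trbc2, -0.21 to 0.46 for Trac and -0.43 to 0.54 for Cd3e. Trbv26, Trbv23, Trbv31, Trbv13-1, Trbv15, Trbv5 and Trbv12-2 kept their sign under all alternatives run, though leaving out single libraries gave 1.76 to 2.79, 1.27 to 1.97, 0.46 to 1.84, 0.56 to 1.35, 0.093 to 1.15, -0.90 to -0.092 and -0.54 to -0.17 in that order.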
